A study of Mus musculus with 8 samples.

Results

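Histones package DNA in the nucleus, and their genes form a large family with a special place in RNA made without selection for a poly(A) tail. Of the 16397 genes in the deposited table of E15.5 mouse hippocampus, 67 carried a histone gene name. They were chosen by name alone: rows named Hist1h to Hist4h, the newer symbols for the same genes (no row carried one), and the variant names beginning H2af, H3f3, H1f0 or H1fx. The class was taken from the name, with Hist1h to Hist4h as replication-dependent and the rest as variant, and protein-coding status from the GENCODE M21 annotation. On this basis 53 of the 67 were protein-coding replication-dependent histone genes, 10 were protein-coding variant histone genes, and 4 were not protein-coding. The replication-dependent genes comprised 6 of H1, 13 of H2A, 14 of H2B, 7 of H3 and 13 of H4.

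The samples were hippocampi dissected from C57Bl/6J embryos at E15.5, with 4 libraries from intrauterine growth restriction (IUGR) and 4 from sham controls. For IUGR, dams carried from E12.5 a micro-osmotic pump that released U-46619, an analog of thromboxane A2 that raises blood pressure, and sham dams carried a pump loaded with vehicle only. The 4 IUGR libraries are T1-1, T1-3, T1-4 and T1-5, and the 4 sham libraries are S1-4, S1-6, S3-1 and S3-4. The sources used here do not say what the prefix T1, S1 or S3 stands for or whether samples came from separate dams, so p values measure only the spread between these samples. Total counts per library were between 11212632 and 16672463, and the ranges of the groups overlapped. Every IUGR library carries T1 and every sham library S1 or S3, so the prefix and the group cannot be told apart. Whole hippocampi were used, in which fewer cells of a type and less RNA per cell cannot be told apart. Sex was not given with the samples, but Xist, expressed in females, was at 958, 894, 1493 and 1288 CPM in T1-3, T1-4, T1-5 and S1-6 and under 6 CPM in the others, while the Y-linked Ddx3y was at 109 to 210 CPM in those others and under 1 CPM in these 4, so that the groups were unbalanced, with 3 of 4 IUGR and 1 of 4 sham libraries of the Xist kind. Markers of neural progenitors and of neurons were high in every library (summed level of 12 progenitor genes, 3314 to 4234 CPM, and of 14 neuronal genes, 4086 to 6236 CPM), but neither list separates hippocampus from the neighbouring cortex.

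Replication-dependent histone genes are transcribed mainly in S phase, when newly copied DNA has to be packaged. Their mRNAs lack introns and usually end not in a poly(A) tail but in a short stem-loop near the stop codon, which is bound by the stem-loop binding protein Slbp and cut with the help of the U7 snRNP. Variant histone genes are mostly spread singly over the genome, are transcribed outside S phase as well, and mostly give spliced and polyadenylated mRNAs. Ribosome-depleted total RNA captures both kinds, whereas selection by oligo(dT) loses most of the first.

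The stem-loop, the feature that sets these mRNAs apart, is printed for 5 replication-dependent genes described below and for the 1 variant in which it was found. Sequences are RNA-sense DNA letters of GENCODE M21 transcripts on GRCm38, 5′ to 3′, and capitals mark the 16 bases of the stem-loop.
Hist1h1c: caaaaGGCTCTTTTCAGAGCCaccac
Hist1h2bb: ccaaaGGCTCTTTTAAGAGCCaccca
Hist1h2bp: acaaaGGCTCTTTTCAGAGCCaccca
Hist1h3e: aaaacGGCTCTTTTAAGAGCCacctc
Hist1h4d: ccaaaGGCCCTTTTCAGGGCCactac
H2afx: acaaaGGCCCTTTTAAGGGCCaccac
These lie in the 3′ UTRs at chr13:23739507-23739532 (plus strand), chr13:23747198-23747223 (plus), chr13:21787918-21787943 (plus), chr13:23561898-23561923 (minus), chr13:23581945-23581970 (plus) and chr9:44335235-44335260 (plus). A match to the 16-base stem-loop consensus, searched on the transcript strand in models with at least 30 bases after the stop codon, was present in 39 of 43 replication-dependent genes (90.7%). The same search found it in 1 of 10 variants (10%) and in 39 of 20894 other protein-coding genes (0.187%). In the replication-dependent genes it began 21 to 54 bases after the stop codon, with a median of 30. The form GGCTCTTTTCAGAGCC was the most common, in 21 genes of H1, H2A, H2B and H3. The form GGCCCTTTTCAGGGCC was in 7 genes, all of them H4. H2afx, the variant whose phosphorylated form marks DNA breaks, was the only variant with a match.

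The start of Hist1h2bb, the most abundant protein-coding H2B gene of the set by CPM, illustrates the promoters of the family. The sequence is from RefSeq on GRCm38.p6 (chr13:23746484-23746783, plus strand, 250 bases before to 50 after the start), and capitals mark the motifs CCAAT (or ATTGG, its other strand), ATTTGCAT and TATAAA, which do not overlap here.
Hist1h2bb: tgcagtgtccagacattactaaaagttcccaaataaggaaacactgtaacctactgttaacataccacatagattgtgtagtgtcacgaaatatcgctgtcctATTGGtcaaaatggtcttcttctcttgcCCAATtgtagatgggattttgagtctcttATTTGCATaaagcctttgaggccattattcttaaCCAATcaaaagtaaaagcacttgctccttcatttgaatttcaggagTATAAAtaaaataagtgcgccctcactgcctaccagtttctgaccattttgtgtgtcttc
On both strands, TATAAA was present in 29 of 49 replication-dependent promoters (59.2%), 1 of 9 variant promoters (11.1%) and 15.6% of 26966 other genes. CCAAT, the core of the site of the factor NF-Y, was present in 40 of 49 (81.6%), 6 of 9 (66.7%) and 41.0%, respectively. Within the replication-dependent set, every promoter of H1, H2A, H2B and H3 held CCAAT, compared with 3 of 12 promoters of H4 (25.0%). ATTTGCAT, the octamer bound by Oct1 (Pou2f1), was present in 6 of 13 H2A and 5 of 12 H2B promoters, and in 0 of 6 of H1, 0 of 6 of H3 and 0 of 12 of H4. It was also in 1 of 9 variant promoters (11.1%, H3f3b) and in 1.92% of other genes. Many H2A and H2B genes lie head to head and can share such a window. Other genes here are all those without a promoter matched to the 67 rows, and may likewise include histone genes. A match describes these letters only.

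Replication-dependent transcripts made up between 0.785% and 1.6% of all counts of a library, and variant transcripts between 0.203% and 0.274%. Level per length (CPM, counts per 1000000 counts after TMM scaling, divided by the exon length in kb, mean of 8 libraries) ranged from 1.05 to 1340 over the 53 replication-dependent genes, with a median of 243. It ranged from 15.3 to 294 over the 10 variants, with a median of 66.0. Exon length is that of the union of annotated models, from 312 to 7425 bases in the replication-dependent genes, and long polyadenylated models lower the level per length of a few, such as Hist1h1d.

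**Figure D1:**
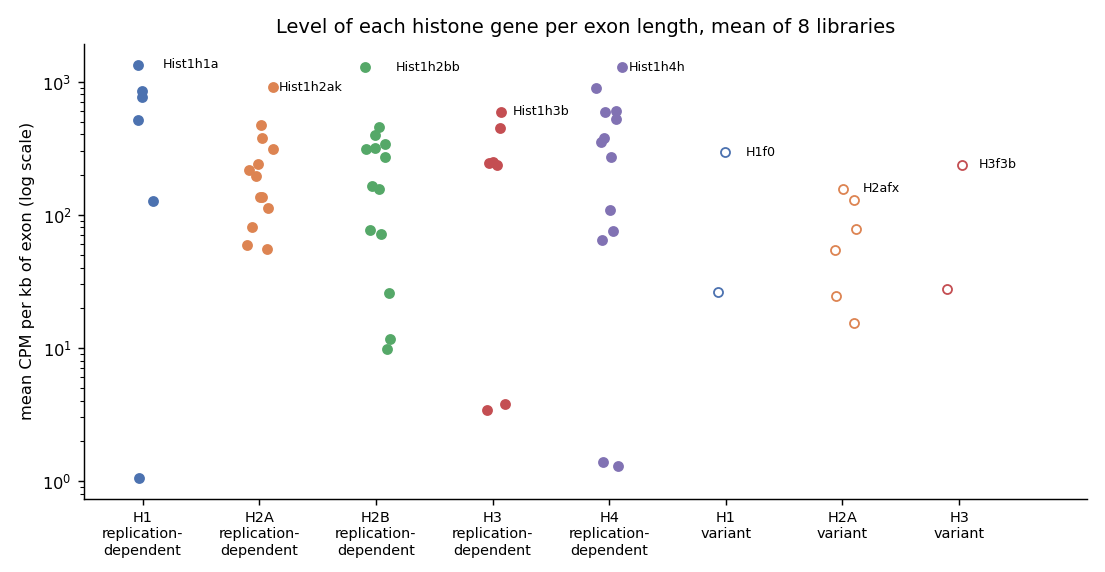
Mean CPM per kb of exon over 8 libraries (log scale) for each of the 53 replication-dependent genes (filled) and 10 variants (open), by family, with the highest gene of each family named. Hist1h1a, Hist1h2bb and Hist1h4h stand highest, at 1340, 1286 and 1284 CPM per kb, and the highest variant, H1f0, at 294.

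Per length, the highest were Hist1h1a (linker histone H1.1), Hist1h2bb, Hist1h4h, Hist1h2ak (H2A, 909 CPM per kb) and, for H3, Hist1h3b (594 CPM per kb). At the other end, 6 replication-dependent genes were under 10 CPM per kb. They were Hist1h1t (the H1 of testis), Hist1h4n, Hist1h4m, Hist2h3c2, Hist2h3c1 and Hist1h2bp. No variant was that low, and H2afj was the lowest variant with 15.3 CPM per kb.

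Near-identical copies limit what a single replication-dependent gene can show. A median of 44.1% of the 50-base windows of their transcripts also occurred in a transcript of another gene, with a range from 0% to 100% (Hist2h3c1), compared with a median of 4.17% and a highest value of 16.9% (H2afz) for the variants. Read length and the handling of reads that map to several genes are not given in the sources used here, so counts of single H2A, H2B, H3 and H4 genes are uncertain, and sums over a family depend less on how reads were shared. Of the genes under 10 CPM per kb, the shared part was 100% for Hist2h3c1, 89.8% for Hist1h4m and 85.6% for Hist1h4n. It was 63.5% for Hist2h3c2 and 44.1% for Hist1h2bp, so the low levels of these genes are uncertain. Only 4 replication-dependent genes had no shared window, Hist1h1a, Hist1h1b, Hist1h1t and Hist2h2be.

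The comparison of IUGR with sham asked whether histone transcripts differed at E15.5, an age at which progenitors of the hippocampus still divide. The 13733 protein-coding genes whose counts averaged 10 or more, but less than 50000, entered the quasi-likelihood test of edgeR with Benjamini-Hochberg adjustment across the whole set. Of the 63 protein-coding histone genes, 61 passed this filter. Hist1h4n and Hist1h4m did not, with mean counts of 7.38 and 7.63. Calls required an adjusted p no higher than 0.05 together with a change of 1 log2 unit or more, up or down. No histone gene was called, where 200 of 13733 genes were called overall (1.46%). None had an unadjusted p under 0.05 in either direction, where 6.63% of all genes did so with a lower and 4.46% with a higher level in IUGR. The smallest unadjusted p was 0.0749 and the smallest adjusted p 0.545, both for Hist1h2bp. DESeq2 likewise called 0 histone genes, where it called 426 of the 13733 genes. It gave 0 histone genes at an unadjusted p under 0.05, a threshold for which its share of all genes is not given here. Limma-voom called 0 histone genes, where it called 329 of the 13733. It gave 1 histone gene at an unadjusted p under 0.05, Hist1h2bp, which was lower in IUGR (6.78% of all genes were lower and 4.25% higher at this threshold in limma-voom). The groups overlapped for each of the 61, whereas 4.95% of all genes did not overlap with IUGR lower and 2.19% with IUGR higher.

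Nearly all estimates for replication-dependent genes were slightly below 0. The log2 fold change (IUGR over sham) was below 0 for 48 of 51 and above 0 for 3 (Hist1h1t, Hist1h2ad and Hist1h3a), with a median of -0.17 and a range from -0.58 to 0.08. Over all tested genes, 55.5% were below 0 and the median was -0.02. The 95% interval lay within 1 log2 unit of 0 for 49 of the 51 (96.1%), as for 76.8% of all tested genes. The exceptions, Hist1h2bp and Hist2h3c2, were both under 10 CPM per kb. Many of these genes share sequence, and some lie in pairs that can share a promoter window, so they cannot be taken as independent. The direction rested on 1 library, T1-3: without it the median became 0.03, with 22 genes below 0 and 29 above, and 0 genes were called or had an unadjusted p under 0.05 in edgeR (7.03% of all tested genes lower and 3.28% higher). Without T1-4 the median was -0.33 and 15 of the 51 replication-dependent genes had an unadjusted p under 0.05, all lower in IUGR, where 5.54% of all tested genes were lower and 6.04% higher at this threshold in the same fit, but 0 were called and the smallest adjusted p was 0.133 (Hist1h2bg).

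**Figure D2:**
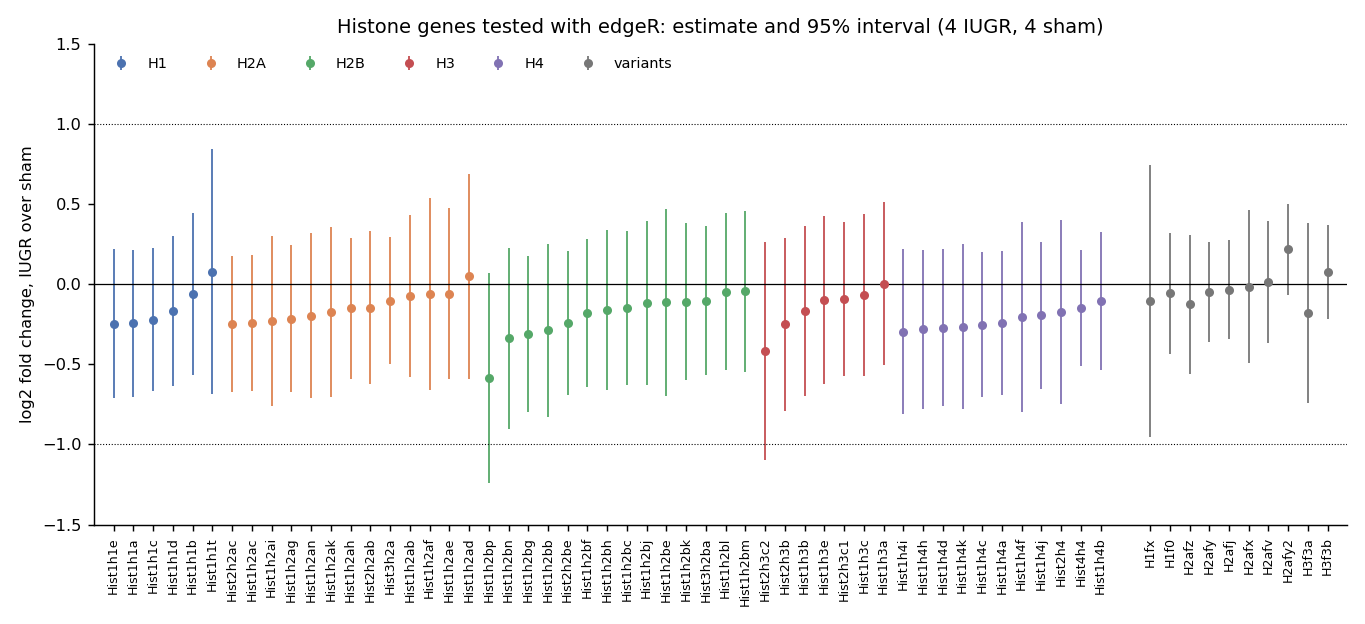
Log2 fold change (IUGR over sham) with 95% interval from edgeR for the 61 tested histone genes, grouped by family, with dotted lines at 1 and -1. Of the 51 replication-dependent genes, 48 points lie below 0 and each interval reaches 0; only the intervals of Hist1h2bp and Hist2h3c2 extend past -1.

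Summed over the 53 replication-dependent genes, the level was 13447, 7620, 16462 and 11801 CPM in T1-1, T1-3, T1-4 and T1-5. In the sham libraries it was 13980 (S1-4), 14645 (S1-6), 13972 (S3-1) and 13498 (S3-4). Thus the sham libraries lay within 1.09-fold of one another, while the IUGR libraries spanned 2.16-fold and held both the lowest and the highest of the 8 values. The IUGR mean was 12332 ± 3687 (SD, n = 4) and the sham mean 14024 ± 472 (SD, n = 4). Without T1-3 the IUGR mean was 13903 ± 2364 (SD, n = 3). The sham mean was 14313 over the 2 libraries with the prefix S1 and 13735 over the 2 with S3, and against either pair alone 46 and 45 of the 51 estimates were below 0, respectively. The 3 IUGR libraries with Xist spanned 7620 to 16462 CPM and the 1 such sham library had 14645, whereas the 1 IUGR library without it had 13447 and the 3 such sham libraries 13498 to 13980. With the log2 CPM of Xist as a covariate, an alternative chosen after seeing the data, the median log2 fold change of the replication-dependent genes was again -0.17. Of the 51, 40 were below 0, and the median over all tested genes was -0.01. In this fit edgeR called 0 genes of any kind, so the absence of histone calls is not particular to histones. The smallest unadjusted p of a replication-dependent gene was 0.159 (edgeR).

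The sum over the 10 variants was 2690, 1965, 2813 and 2462 CPM in T1-1, T1-3, T1-4 and T1-5. It was 2571 in S1-4, 2311 in S1-6, 2548 in S3-1 and 2422 in S3-4. The order of the IUGR libraries was the same as for the replication-dependent sum, over a narrower span of 1.43-fold, and the group means were alike, with 2483 ± 374 in IUGR and 2463 ± 121 in sham (SD, n = 4 each). The ratio of the replication-dependent to the variant sum was 5, 3.88, 5.85 and 4.79 in T1-1, T1-3, T1-4 and T1-5 and from 5.44 to 6.34 in the sham libraries. T1-4 lay within the sham range of this ratio and the other 3 IUGR libraries below it.

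**Figure D3:**
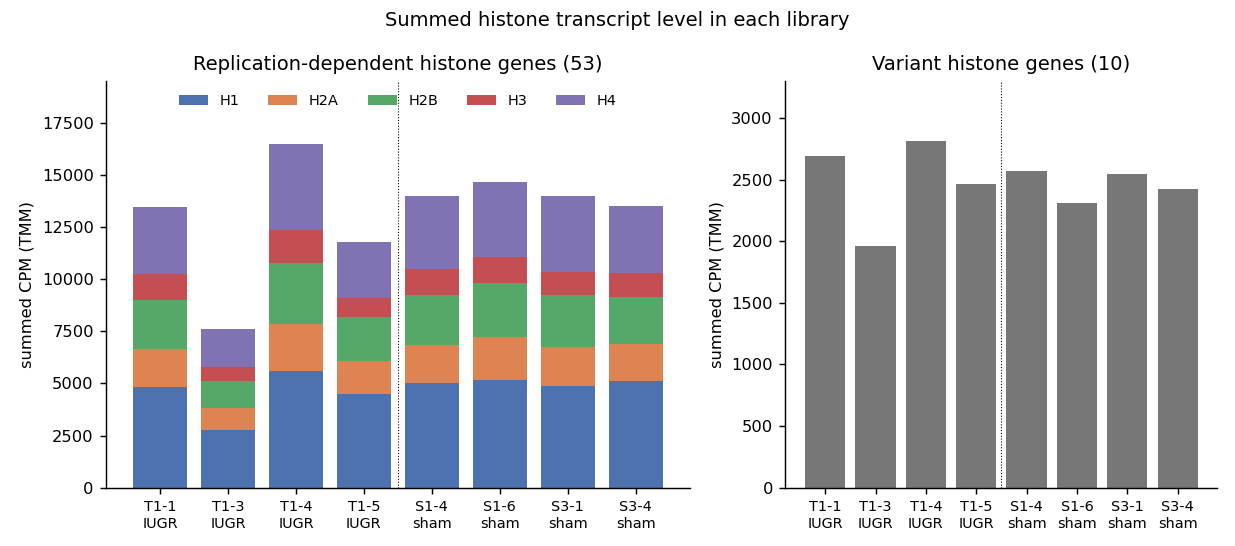
Summed CPM (TMM-scaled) in each of the 8 libraries for the 53 replication-dependent genes, stacked by family (left), and for the 10 variants (right, its own scale); both axes start at 0. T1-3 is lowest and T1-4 highest in both panels, and the 4 sham libraries lie close together.

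Among H1 genes, which encode the linker histones that bind between nucleosomes, the sum was 4844, 2755, 5589 and 4475 CPM in T1-1, T1-3, T1-4 and T1-5, and between 4880 and 5176 in sham. Hist1h1c (H1.2; ENSMUSG00000036181, chr13:23738808-23740367, plus strand) was the most abundant H1 gene. Its level was 1042, 720, 1340 and 1312 CPM in T1-1, T1-3, T1-4 and T1-5, and 1103, 1544, 1231 and 1249 in S1-4, S1-6, S3-1 and S3-4. T1-3 was the lowest library and a sham library, S1-6, the highest, and the groups overlapped. The log2 fold change was -0.22 ± 0.20 (SE), with an edgeR adjusted p of 0.956. The other abundant linker genes had estimates of -0.24 (Hist1h1a), -0.06 (Hist1h1b), -0.17 (Hist1h1d) and -0.24 (Hist1h1e). Hist1h1t stayed near 1 CPM throughout, from 0.654 to 1.28, and was the only tested H1 gene for which T1-3 was highest.

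H2A and H2B form the dimers at the sides of the nucleosome. The H2A sum was 1817, 1078, 2269 and 1618 CPM in T1-1, T1-3, T1-4 and T1-5, and between 1781 and 2068 in sham. Hist1h2ak (ENSMUSG00000063021, chr13:21753435-21753827, minus strand), the most abundant, measured 337, 209, 524 and 277 CPM in these IUGR libraries and 402, 402, 337 and 370 in S1-4, S1-6, S3-1 and S3-4. Both the lowest and the highest value were from IUGR, and the log2 fold change was -0.17 ± 0.24 (SE; edgeR adjusted p = 0.9995). Hist1h2ad was the H2A gene with a positive estimate, 0.05 ± 0.29. It measured 90.2, 39.6, 52.9 and 78.2 CPM in IUGR and 36.5, 73.5, 77.7 and 63.4 in sham, so that here S1-4 was lowest and T1-1 highest.

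The H2B sum over the 14 protein-coding genes was 2354, 1269, 2932 and 2070 CPM in T1-1, T1-3, T1-4 and T1-5, and between 2276 and 2557 in sham. Hist1h2bb (ENSMUSG00000075031, chr13:23746734-23747241, plus strand), whose promoter and stem-loop are printed above, measured 545, 328, 845 and 641 CPM in IUGR and 651, 843, 722 and 653 in S1-4, S1-6, S3-1 and S3-4. Its log2 fold change was -0.29 ± 0.24 (SE; edgeR adjusted p = 0.926), and its highest values, in T1-4 and S1-6, were from both groups.

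The estimate farthest from 0 belonged to Hist1h2bp (ENSMUSG00000069308, chr13:21787461-21789213, plus strand), an H2B gene of low level. It measured 5.4, 2.79, 7.71 and 6.27 CPM in T1-1, T1-3, T1-4 and T1-5, and 7.62, 7.12, 9.16 and 9.08 in S1-4, S1-6, S3-1 and S3-4. The lowest 3 values were from IUGR, and T1-4 overlapped the sham range. The log2 fold change was -0.58 ± 0.29 (SE), with a 95% interval from -1.24 to 0.07 and an edgeR adjusted p of 0.545. Hist2h3c2 (H3) came next at -0.41 ± 0.31 (SE; edgeR adjusted p = 0.853), with a mean count of 48.0. The estimates that followed were those of Hist1h2bn (-0.34), Hist1h2bg (-0.31) and Hist1h4i (-0.29), and the replication-dependent genes nearest to 0 from below were Hist1h2bm (-0.04), Hist1h2bl (-0.05) and Hist1h2ae (-0.06).

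H3 and H4 form the tetramer at the centre of the nucleosome. The H3 sum was 1249, 668, 1573 and 925 CPM in T1-1, T1-3, T1-4 and T1-5, and between 1116 and 1273 in sham. Hist1h3e (ENSMUSG00000069273, chr13:23561534-23562369, minus strand), the most abundant H3 gene, measured 414, 214, 512 and 301 CPM in IUGR and 442, 376, 376 and 337 in S1-4, S1-6, S3-1 and S3-4. Sham values lay inside the IUGR range, and the log2 fold change was -0.10 ± 0.24 (SE; edgeR adjusted p = 0.9995). Hist1h3a was at 0.00 ± 0.23. The ratio of replication-dependent H3 to the variant H3.3 genes (H3f3a and H3f3b) was 1.61, 0.964, 1.76 and 1.03 in T1-1, T1-3, T1-4 and T1-5, and from 1.31 to 1.95 in sham.

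The H4 sum was 3182, 1850, 4099 and 2713 CPM in T1-1, T1-3, T1-4 and T1-5, and between 3218 and 3622 in sham. Hist1h4d (ENSMUSG00000061482, chr13:23581598-23582735, plus strand), the most abundant H4 gene by CPM, measured 631, 391, 905 and 545 CPM in IUGR and 829, 735, 724 and 682 in S1-4, S1-6, S3-1 and S3-4. T1-4 lay above and the other 3 IUGR libraries below every sham library, and the log2 fold change was -0.27 ± 0.22 (SE; edgeR adjusted p = 0.911). The estimates for the 11 tested H4 genes were all below 0, from -0.29 to -0.10.

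Among the IUGR libraries, the clusters shared 1 order. The 43 genes of the Hist1 cluster on chromosome 13 summed to 12193, 6853, 14985 and 10792 CPM in T1-1, T1-3, T1-4 and T1-5. The 7 genes of the Hist2 cluster on chromosome 3 summed to 540, 308, 602 and 361 CPM in the same libraries, the 2 genes of Hist3 to 492, 312, 618 and 449, and Hist4h4 to 221, 147, 258 and 199. In sham, the sums were between 12279 and 13376 (Hist1), 464 and 565 (Hist2), 467 and 551 (Hist3), and 214 and 248 (Hist4h4). T1-3 was below and T1-4 above every sham library in all 4 clusters.

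The variants are described in the order H1, H2A, H3. H1f0 (H1.0, a linker histone of cells that leave the cycle) had 664, 421, 693 and 596 CPM in T1-1, T1-3, T1-4 and T1-5 and 545 to 687 in sham, with a log2 fold change of -0.06 ± 0.17 (SE). H1fx had the widest error, with 16.9 to 40.2 CPM in IUGR and 16.3 to 56.8 in sham (-0.11 ± 0.38).

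H2afx, the variant with the stem-loop, had 283, 145, 267 and 171 CPM in T1-1, T1-3, T1-4 and T1-5 and 204, 253, 181 and 233 in S1-4, S1-6, S3-1 and S3-4. T1-3 was lowest and T1-1 highest, and the log2 fold change was -0.02 ± 0.22 (SE). For the H2A.Z genes, the estimates were -0.13 ± 0.20 for H2afz (31.8 to 55.1 CPM in IUGR, 39.6 to 50.9 in sham) and 0.02 ± 0.17 for H2afv (151 to 261 and 174 to 234). H2afj was at -0.03 ± 0.14, and H2afy (macroH2A1) at -0.05 ± 0.14. H2afy2 (macroH2A2, like macroH2A1 a variant with a large extra domain found in condensed chromatin) had the highest estimate of any histone gene, 0.22 ± 0.13 (SE), with 201, 165, 208 and 155 CPM in T1-1, T1-3, T1-4 and T1-5 and 163, 164, 142 and 155 in S1-4, S1-6, S3-1 and S3-4. Its edgeR adjusted p was 0.68, and T1-5 lay within the sham range.

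Both H3.3 genes encode the same protein, which replaces H3 outside replication. H3f3b, the more abundant, had 706, 624, 793 and 774 CPM in T1-1, T1-3, T1-4 and T1-5 and 740, 580, 726 and 688 in S1-4, S1-6, S3-1 and S3-4, a log2 fold change of 0.08 ± 0.13 (SE). H3f3a had 68.3, 69.1, 103 and 126 CPM in IUGR and 122, 71.2, 132 and 87.3 in sham (-0.18 ± 0.25). Neither followed the order of the replication-dependent sums: the lowest library was S1-6 for H3f3b and T1-1 for H3f3a.

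The 4 rows that are not protein-coding were not in the main test. Hist2h2bb carries an identifier (ENSMUSG00000050936) that M21 lists as a long noncoding RNA overlapping the coding Hist2h2bb gene on the same strand, at 720 to 1551 CPM in IUGR and 1183 to 1462 in sham. Its mean over the 8 libraries, 1229 CPM, was above that of Hist1h2bb (653.5 CPM). The H2B sums leave this row out, and how much of it is H2B mRNA was not tested. Hist3h2bb-ps, a pseudogene, was at 23.4 to 65.8 and 12.8 to 38.8 CPM, and H3f3aos, antisense to H3f3a, at 5 to 8.91 and 5.15 to 9.09. Whether reads were counted by strand is not given in the sources used here. Hist1h2al, another pseudogene, was at 1.77, 15.4, 24.1 and 21.7 CPM in T1-1, T1-3, T1-4 and T1-5 and 24.7, 1.31, 0.586 and 1.01 in S1-4, S1-6, S3-1 and S3-4, so that libraries of both groups were high and low. When all genes of the table that met the count limits were tested with edgeR, 65 of the 14956 tested rows were histone rows. Of these 0 were called, where 191 rows of any kind were called. The smallest adjusted p of a histone row was 0.551 (edgeR).

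The shift of single libraries ran through nearly the whole replication-dependent set. T1-3 was the lowest of the 8 libraries for 47 of 51 tested genes (92.2%), as it was for 15.3% of all tested genes. By family this was 5 of 6 for H1, 12 of 13 for H2A, 14 of 14 for H2B, 6 of 7 for H3 and 10 of 11 for H4. T1-4 was the highest for 34 of 51 (66.7%), as it was for 7.78% of all tested genes. T1-3 was below every sham library for 48 of 51 replication-dependent genes, 7 of 10 variants and 26.1% of all tested genes, and T1-4 was above every sham library for 35 of 51, 5 of 10 and 14.9%, respectively.

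Gene by gene, the CPM of T1-3 divided by the sham mean had a median of 0.551 over the 51 genes, from 0.339 (Hist1h2bp) to 1.38 (Hist1h1t). The medians by family were close, with 0.552 for H1, 0.554 for H2A, 0.535 for H2B, 0.563 for H3 and 0.527 for H4. For T1-4 the median was 1.17, for T1-5 0.826 and for T1-1 0.982, and for the sham libraries between 0.95 and 1.03. Over the 10 variants the medians were 1.07, 0.764, 1.14 and 0.983 in T1-1, T1-3, T1-4 and T1-5. Over all 13733 genes they were between 0.969 and 1.00 in the 8 libraries. On the log2 scale, the SD among IUGR libraries exceeded that among sham libraries for 49 of 51 replication-dependent genes (96.1%) and for 52.6% of all tested genes.

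Genes of the dividing cell followed the same order among the IUGR libraries, though not among the sham libraries. The S phase list (32 genes for DNA replication, such as Pcna, Mcm5 and Rrm2) summed to 3847, 2510, 4387 and 3342 CPM in T1-1, T1-3, T1-4 and T1-5, and between 3458 and 3683 in sham. The list for G2 and M phase (21 genes, such as Mki67 and Top2a) summed to 6304, 3639, 8093 and 5810 CPM, and between 5744 and 6764 in sham. In T1-3 all 32 and all 21 of these genes were below the sham mean, with median ratios of 0.691 and 0.595, and in T1-4 all were above it, with 1.16 and 1.22. The replication-dependent sum divided by that of the S phase list was 3.5, 3.04, 3.75 and 3.53 in T1-1, T1-3, T1-4 and T1-5 and from 3.67 to 4.04 in sham. Divided by that of the G2 and M phase list, it was 2.13, 2.09, 2.03 and 2.03 in IUGR and from 2.03 to 2.43 in sham, so that on this scale T1-3 and T1-4 did not stand apart.

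**Figure D4:**
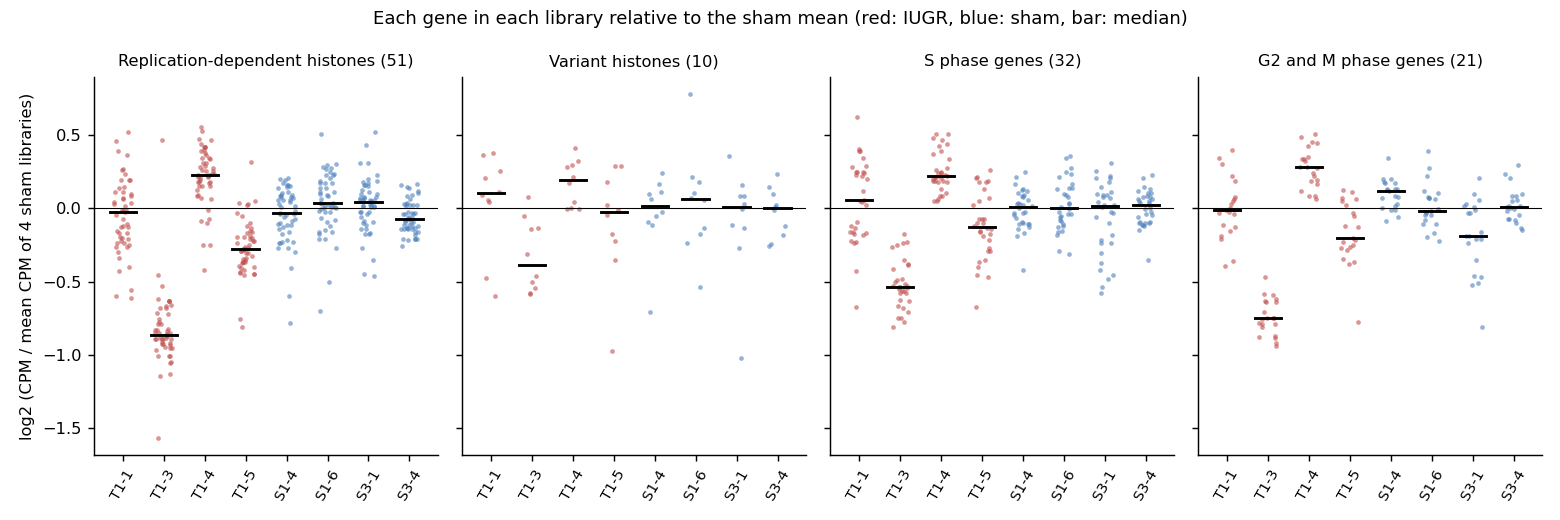
Log2 of CPM over the mean CPM of the 4 sham libraries, 1 point per gene and library, for 51 replication-dependent histone genes, 10 variants, 32 S phase genes and 21 G2 and M phase genes (red, IUGR; blue, sham; bar, median). The points of T1-3 lie low and those of T1-4 high in each panel, and the medians of the sham libraries lie between them.

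In the comparison of the groups, 0 of the 32 S phase genes, 0 of the 21 G2 and M phase genes and 0 of the 12 neural progenitor genes were called, and in each list 0 had an unadjusted p under 0.05, by edgeR and also by DESeq2 and limma-voom. Median log2 fold changes were -0.04, -0.10 and -0.11. Mki67 had 975, 510, 1179 and 718 CPM in T1-1, T1-3, T1-4 and T1-5 and 985, 1132, 649 and 966 in S1-4, S1-6, S3-1 and S3-4 (-0.15 ± 0.26, SE). Pcna (-0.17 ± 0.18) and the stem cell factor Sox2 (-0.22 ± 0.25) overlapped likewise between the groups.

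The machinery that makes and handles histone mRNA and protein varied less. Of 19 listed genes for histone mRNA synthesis, processing and decay, 18 were in the table and tested, 0 were called and 0 had an unadjusted p under 0.05 by edgeR, DESeq2 or limma-voom. Their sum was 1940, 1577, 1933 and 1774 CPM in T1-1, T1-3, T1-4 and T1-5 and between 1816 and 1870 in sham. Slbp had 88.3, 50.1, 78.4 and 78.2 CPM in IUGR and 97.3, 68, 88 and 69.9 in S1-4, S1-6, S3-1 and S3-4 (-0.14 ± 0.19, SE). Npat, the coactivator of histone gene transcription, had 71.2 to 94.1 and 80.5 to 97.8 (-0.10 ± 0.13). T1-3 was the lowest library for both genes. The 28 histone chaperone genes also gave 0 calls and 0 genes at an unadjusted p under 0.05 by the same 3 tools, with a median log2 fold change of -0.03. Their sum was 5625, 4866, 6379 and 5498 CPM in T1-1, T1-3, T1-4 and T1-5 and between 5317 and 6157 in sham. In T1-3, 17 of the 18 and 25 of the 28 genes were below the sham mean, as were 54.9% of all tested genes. In T1-4 these counts were 9 of 18 and 10 of 28, against 55.4% of all tested genes.

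Markers of other cell types moved with the same libraries. The 7 meningeal fibroblast markers summed to 377, 2606, 71.6 and 748 CPM in T1-1, T1-3, T1-4 and T1-5 and between 302 and 592 in sham, so that T1-3 was highest where the replication-dependent sum was lowest and T1-4 the reverse. For Col3a1 the values were 177, 1240, 21.2 and 290 CPM in IUGR and 84.1 to 163 in sham, and this marker had the largest ratio of T1-3 to the sham mean (8.91). Ogn was the exception of the 7, below the sham mean in T1-3 (ratio 0.789), and had a log2 fold change of -1.49 ± 0.65 (SE; unadjusted p = 0.0452, edgeR adjusted p = 0.428). The 8 microglia markers summed to 76.3, 230, 52.2 and 116 CPM in T1-1, T1-3, T1-4 and T1-5 and between 66.8 and 91.1 in sham, and all 8 were above the sham mean in T1-3. Markers of endothelium and pericytes (9 genes) summed to 394, 578, 396 and 468 CPM in IUGR and 333 to 439 in sham, and erythroid markers (12 genes) to 1715, 2076, 642 and 1786 in IUGR and 1017 to 1533 in sham. At an unadjusted p under 0.05, Flt1 (0.61) and Rgs5 (0.40) of the vessel list and Hemgn (2.15) of the erythroid list had log2 fold changes above 0, and 0 genes of these lists were called by edgeR, DESeq2 or limma-voom. In edgeR, 4.46% of all tested genes were higher in IUGR at this unadjusted threshold. In DESeq2, 4 of the 9 vessel and 2 of the 11 tested erythroid genes were higher at it, and its share of all genes is not given here. The part of these cells in the histone values was not tested.

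Other cell type lists were compared between the groups in the same fit. Of 15 choroid plexus markers tested, each had a lower level in IUGR at an unadjusted p under 0.05 in edgeR, as had 6.63% of all tested genes. Of the 15, edgeR called 5 (Cldn2, Trpv4, Car12, Folr1 and Otx2), where it called 1.46% of all tested genes. The others were Aqp1, Slc4a5, Sostdc1, Clic6, Kcne2, Calml4, Cldn1, Kcnj13, Kl and Enpp2. DESeq2 called 6 of the 15 (426 genes of any kind), with 14 at an unadjusted p under 0.05, and limma-voom called 13 (329 of any kind). The 15 summed to 56.2, 360, 44.9 and 322 CPM in T1-1, T1-3, T1-4 and T1-5 and to between 1052 and 1514 in sham. The 14 general neuron markers all had estimates above 0, with a median log2 fold change of 0.63. In edgeR 8 had an unadjusted p under 0.05 (Syt1, Mapt, Gap43, Stmn2, Snap25, Nefl, Ina and Map2), where 4.46% of all tested genes were higher at this threshold. Of the 14, 0 were called by edgeR, 2 by DESeq2 and 1 by limma-voom. The libraries T1-1 and T1-4, lowest in choroid plexus markers, held 13447 and 16462 CPM of replication-dependent transcripts, just below and above the sham range. The part of this difference in cell makeup in the histone values was not tested.

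Other RNAs without a poly(A) tail were compared where the table held them. Terc (the RNA of telomerase), Rny1 and Rny3 (Y RNAs) had values of 25.5 to 37 and 24.7 to 45.8, 43.7 to 120 and 73.1 to 275, and 23.5 to 152 and 72.6 to 281 CPM in IUGR and sham, respectively. T1-4 was the lowest library after S1-4 for Terc, and T1-1 was the lowest for Rny1 and Rny3, so their order was not that of the histone sums. Vaultrc5 (a vault RNA) was at 2.91, 2.39, 1.83 and 3.7 CPM in T1-1, T1-3, T1-4 and T1-5 and 2.51, 2.78, 6.67 and 2.89 in S1-4, S1-6, S3-1 and S3-4, lowest in T1-4. They are not protein-coding and were not in the main test.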

How the data were processed

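Total RNA of 4 IUGR and 4 sham E15.5 hippocampi was depleted of ribosomal RNA, sequenced as single reads with a stranded kit, and deposited by the authors as raw read counts per gene, without normalization. The submitters' processing notes name Novoalign 2.8 and mm10. The counting program, annotation release, strand setting and treatment of multiply mapped reads are not given in the sources used here. Identifiers were matched to GENCODE M21 (16124 by identifier, 39 by symbol, 234 unmatched). The members, the gene lists and the tests were chosen with earlier results of these data known.

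CPM values used TMM-adjusted library sizes over all 16397 genes. The comparison used the quasi-likelihood test of edgeR 4.0.16 (R 4.3.3) on 13733 protein-coding genes whose counts averaged 10 or more, but less than 50000, with the Benjamini-Hochberg adjustment. The study's methods give the same limits on counts but do not say that they apply to a mean over libraries, which was chosen here. Tested on simulated data with 200 of 13733 genes changed 4-fold, it recovered 184 with 3 false calls (DESeq2 187 and 19, limma-voom 183 and 5). Genes were drawn independently of one another, and smaller changes, such as the histone estimates, were not simulated. Alternatives were DESeq2 1.42.0, limma 3.58.1 (voom), other scalings and filters, each library left out in turn and, chosen after seeing the data, Xist as a covariate.

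Named were the most abundant replication-dependent gene by CPM of each family, the 5 highest and 5 lowest log2 fold changes at a mean count of at least 50, each tested variant, and, from the lists, Slbp, Npat, Mki67, Pcna, Sox2 and genes called or at an unadjusted p under 0.05. A few more were named after their values were seen. Libraries of a group differed by more than sampling noise (chi-square over its degrees of freedom, 27.7 to 73.8 in the 12 pairs), so each counted once. Total counts from 11212632 to 16672463 gave the tested members mean counts from 13.4 (Hist1h1t) to 16163 (Hist1h1c). Sums over members were given without a test.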

Additional observations from a re-analysis of the deposited data

Results flagged for a closer look

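In each group, the highest and lowest library of every histone gene and of the sums was set against the other 3 by Dixon's ratio of gap to range, over 158 sets of 4 values. The ratio was above the 95% critical value in 5, and chance alone flags about 1 in 20. The sham value of Hist1h2ah was 97.2 CPM in S1-6, against 77.8 to 78.7 in the other sham libraries. The sham value of the pseudogene Hist1h2al was 24.7 CPM in S1-4, against 0.586 to 1.31. The remaining 3 were low-level genes in IUGR. Hist1h4n was at 0.875 CPM in T1-4, against 0.213 to 0.291. Hist1h4m was at 1.03 CPM in T1-4, against 0.497 to 0.582. Hist1h1t was at 1.28 CPM in T1-3, against 0.855 to 0.923. The low sums of T1-3 were not past the critical value.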

How the results depend on the processing

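No histone gene was called under any alternative. The count of called genes of all kinds, 200 with edgeR, was 426 with DESeq2, 329 with limma-voom, 73 at a mean count of at least 50, 0 with only the S1 and 2 with only the S3 sham libraries, 0 with the log2 CPM of Xist as a covariate (chosen after seeing the data), and 41 to 300 with 1 library left out. Histone genes lower at an unadjusted p under 0.05 numbered 0 with edgeR, 1 with limma-voom, and 0 to 15 with 1 library left out, the 15 without T1-4, where 5.54% of all tested genes were lower at this threshold. The median log2 fold change with 1 library left out was from -0.33 to 0.03 for replication-dependent genes and from -0.12 to 0.09 for variants, and the value above 0 for the former was without T1-3. Among named genes, all uncalled, the sign of the log2 fold change turned as follows. With limma-voom it was -0.063 for Hist1h3a and -0.003 for H2afv. With only S3 sham libraries it was 0.038 for Hist1h3e, -0.095 for Hist1h2ad, 0.085 for Hist1h2bl, 0.171 for H1fx, 0.033 for H2afj and 0.082 for H2afx. With only S1 it was -0.055 for Hist1h3a, 0.036 for Hist1h2ae, -0.096 for H2afv and 0.046 for H2afy. Without a count filter it was 0.001 for Hist1h2bm and for Hist1h2bl, 0.007 for H2afj and 0.028 for H2afx. With the Xist covariate it was 0.07 for Hist1h2bm, 0.023 for Hist1h2bl, 0.065 for H1f0, 0.004 for H2afj, 0.026 for H2afx and 0.092 for H2afy. For H2afx it was 0.009 with DESeq2 and with its size factors, 0.004 with upper-quartile scaling and 0.014 at a mean count of at least 50. With 1 library left out, the ranges that cross 0 were -0.47 to 0.039 (Hist1h2ak), -0.314 to 0.129 (Hist1h3e), -0.116 to 0.255 (Hist1h2ad), -0.143 to 0.221 (Hist1h3a), -0.166 to 0.193 (Hist1h2bm), -0.219 to 0.154 (Hist1h2bl), -0.218 to 0.145 (Hist1h2ae), -0.33 to 0.313 (H1fx), -0.139 to 0.115 (H1f0), -0.086 to 0.034 (H2afj), -0.133 to 0.168 (H2afx), -0.1 to 0.187 (H2afv), -0.299 to 0.018 (H2afz) and -0.125 to 0.065 (H2afy). The cause was not tested. Upper quartile and DESeq2 scaling moved the median over all genes from -0.02 to 0.00, and 48 of 51 replication-dependent genes were below 0 under each. The mean summed CPM of either class moved by less than 1 SD with unadjusted totals and with totals that leave out mitochondrial genes.
No paired analysis was possible because the replicate numbers were given in accession order.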

Other observations

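The split of Hist1h2al across libraries had a counterpart outside the histone genes, noticed after the values were seen. Rps3a3, a processed pseudogene of a ribosomal protein gene in M21, measured 0.568, 91.9, 88.6 and 127 CPM in T1-1, T1-3, T1-4 and T1-5 and 82.1, 1.15, 0.806 and 0.605 in S1-4, S1-6, S3-1 and S3-4. It was therefore high in T1-3, T1-4, T1-5 and S1-4, the libraries in which Hist1h2al was at 15.4 to 24.7 CPM. Xist was high in T1-3, T1-4, T1-5 and S1-6, so its split was not that of Hist1h2al.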
